A study of Mus musculus with 2 samples.

Results

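Binding of the transcription factors Smad2 and Smad3 was examined at 6 gene loci that belong to the TGF-beta pathway itself: Smad3, Smad6, Smad7, Skil, Tgif1 and Pmepa1. The data came from chromatin immunoprecipitation followed by sequencing (ChIP-seq) in NMuMG, an established epithelial line from mouse mammary gland, kept in medium with insulin at 10 ug/ml. Before chromatin was taken, the cells had been exposed for 1.5 h to TGF-beta3 at 1 ng/ml, with 10% serum present. Of the 2 samples, both from treated cells, 1 was precipitated with an antibody to Smad2/3 and 1 was input chromatin, and the only file was the list of regions called for the ChIP library. It has no replicate and no untreated sample, so it shows where the factors were found after treatment and not what treatment changed. Regions were taken as members when their centre lay in a fixed window of the mouse build mm9. These windows were 63.40 to 63.70 Mb of chromosome 9 for Smad3, 63.70 to 63.97 Mb of chromosome 9 for Smad6, 75.43 to 75.66 Mb of chromosome 18 for Smad7, 30.89 to 31.12 Mb of chromosome 3 for Skil, 71.00 to 71.30 Mb of chromosome 17 for Tgif1 and 172.95 to 173.20 Mb of chromosome 2 for Pmepa1. In all, 45 of the 5847 regions were members, and no window was empty. Membership means position in a window only. The windows are wide enough to hold parts of neighbouring genes, no mm9 annotation was used, and no region is assigned to a promoter, an intron or an exon. The identity of the cells could not be checked from a list of positions.

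TGF-beta signals through a pair of receptor kinases that phosphorylate Smad2 and Smad3, which then join Smad4, enter the nucleus and bind DNA together with other factors. Among the genes that this complex is known to switch on are inhibitors of the same pathway, which form a negative feedback. Smad7 blocks the type I receptor and brings ubiquitin ligases to it, and Smad6 acts mainly against the related BMP branch. Skil encodes SnoN, a corepressor that binds the SMAD complex on DNA, and Tgif1 encodes a homeodomain corepressor that does the same. Pmepa1 encodes a membrane protein that binds receptor-activated SMADs and keeps them away from the receptor. Smad3 itself is the receptor-activated member that contacts DNA, through short AGAC motifs, with GTCT on the other strand, and also through the GC-rich sequence GGCGCC.

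Promoter sequences of 3 of the 6 genes (Smad3, Smad6 and Tgif1) were read from RefSeq, which describes the newer build GRCm38.p6. They are shown to give the letters that Smad3 can recognise at the starts of these genes. Since the regions are in mm9, whether any of them covers these bases was not determined. The 250 bases before the annotated start are given 5′ to 3′ on the strand of the gene, with AGAC, GTCT and GGCGCC in capitals. The Smad3 stretch is chr9:63757995-63758244, minus strand, the Smad6 stretch is chr9:64022060-64022309, minus strand, and the Tgif1 stretch, before the most upstream of its 5 listed starts, is chr17:70853533-70853782, minus strand.
Smad3: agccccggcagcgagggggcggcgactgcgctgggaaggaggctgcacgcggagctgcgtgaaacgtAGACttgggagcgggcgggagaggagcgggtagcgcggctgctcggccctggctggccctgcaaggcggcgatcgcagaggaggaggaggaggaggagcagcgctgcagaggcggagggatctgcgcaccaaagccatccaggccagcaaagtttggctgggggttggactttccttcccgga
Smad6: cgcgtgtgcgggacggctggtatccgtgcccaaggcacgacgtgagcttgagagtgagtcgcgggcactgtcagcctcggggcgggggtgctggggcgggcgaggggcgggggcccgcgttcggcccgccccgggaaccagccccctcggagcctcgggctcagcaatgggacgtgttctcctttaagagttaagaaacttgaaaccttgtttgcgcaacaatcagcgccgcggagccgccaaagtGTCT
Tgif1: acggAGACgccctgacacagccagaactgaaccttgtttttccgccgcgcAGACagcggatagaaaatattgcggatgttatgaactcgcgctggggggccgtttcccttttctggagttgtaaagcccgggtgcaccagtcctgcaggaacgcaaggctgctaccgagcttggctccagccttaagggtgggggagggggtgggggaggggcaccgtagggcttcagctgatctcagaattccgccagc
Each of the Smad3 and Smad6 stretches held 1 match to AGAC on either strand, and the Tgif1 stretch held 2. One of the Tgif1 matches was part of CAGAC, the longer form of the motif. Before the other 4 listed Tgif1 starts, the same length held 4, 0, 3 and 3 matches to AGAC and 2, 0, 1 and 0 to CAGAC. On either strand, AGAC occurred in 82.9% of the 32851 RefSeq promoters of that length, so its presence does not set these genes apart. CAGAC occurred in 42.2% of them and GGCGCC, which none of the 3 stretches held, in 9.59%. The AP-1 motif TGAGTCA, whose other strand reads TGACTCA, was also absent from all 3 and occurred in 4.46% of all promoters. A match is a run of letters and not a bound site, and a missing match says nothing about binding elsewhere in a locus.

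The loci differed in how many regions they held. Pmepa1 had 12, Tgif1 10, Smad7 9, Skil 6, and Smad3 and Smad6 4 each. These counts depend on how finely regions were split. With edges within 500 bp merged they were 10 at Pmepa1, 8 at Smad7, 7 at Tgif1, 5 at Skil, 4 at Smad3 and 3 at Smad6, so Tgif1 then came after Smad7. Together the windows spanned 1.58 Mb and held 28.5 regions per Mb, while the autosomes as a whole held 2.43. Per Mb, the Pmepa1 window held 48.0 regions, the Smad7 window 39.1, the Tgif1 window 33.3 and the Skil window 26.1, which was between 10.9 and 19.5 times the density of their own chromosomes. At Smad6 and Smad3 the density was 14.8 and 13.3 regions per Mb, 4.91 and 4.42 times that of chromosome 9.

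Each count was set beside all fixed, non-overlapping windows of the same length laid along the chromosomes, whose median count was 0. As many regions as at Pmepa1 were held by 0.0394% of windows of 0.25 Mb (4 of 10144). For Smad7 this share was 0.0816% of windows of 0.23 Mb (9 of 11027), and for Tgif1 0.118% of windows of 0.30 Mb (10 of 8460). The fixed windows were laid over the whole list, members included. The full windows counted for a locus can thus hold its own regions, as those for Pmepa1 did. These shares rest on few windows. With windows laid later by 0.5 of their length they were 0.0197% for Pmepa1, 0.127% for Smad7 and 0.142% for Tgif1. A window edge then fell among the Pmepa1 regions. The Skil count was reached by 0.907% of windows of 0.23 Mb. The Smad6 count was reached by 3.98% of windows of 0.27 Mb, and the Smad3 count by 4.96% of windows of 0.30 Mb. Windows as full as Pmepa1, Smad7 and Tgif1 were thus rare in the list as called. The shares were not recomputed with close regions merged. The 6 windows were chosen around known pathway genes with earlier results of this list in view, so these shares describe the list and are not tests.

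**Figure D1:**
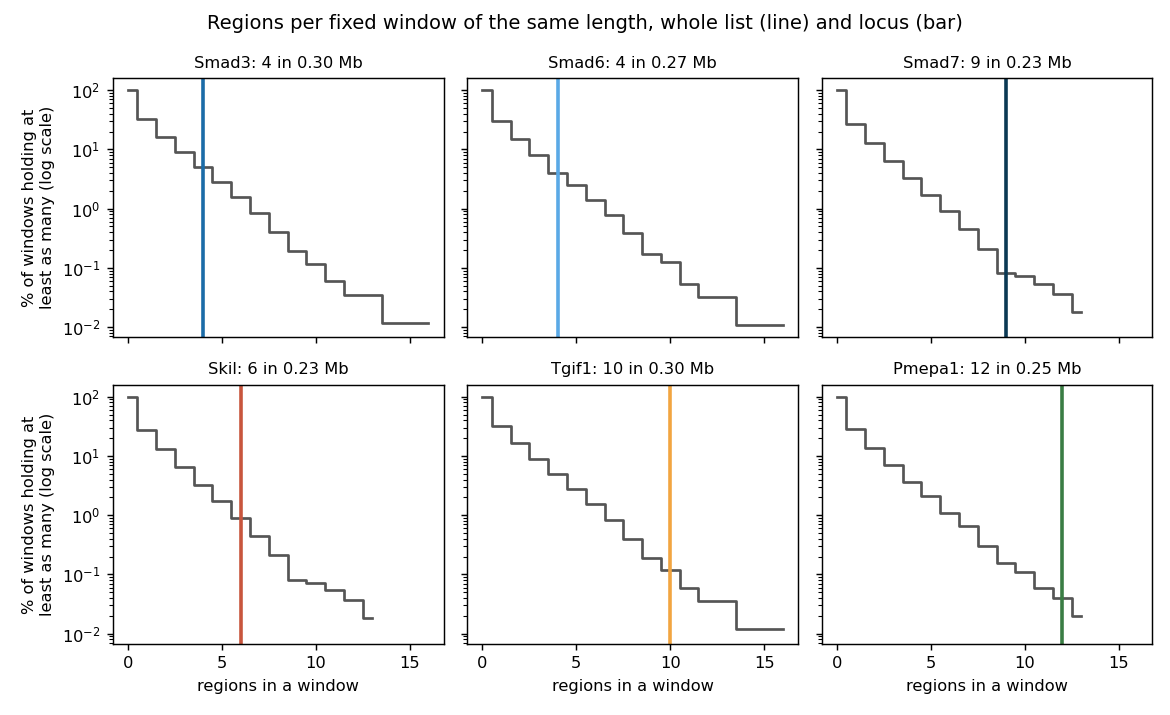
Percentage of fixed windows of the same length (vertical axis, log scale) that held at least the number of regions on the horizontal axis, with the count of each locus as a coloured vertical bar. The bars of Pmepa1, Smad7 and Tgif1 stand far to the right, where 0.0394%, 0.0816% and 0.118% of windows were as full, and those of Smad3 and Smad6 stand at 4.96% and 3.98%.

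Besides its position and a score that was the same in every line, each region had a width and a list number. Width is the length of DNA called as bound. The list number is a running number whose meaning was not stated. It is given here as a position in the list and not as a measure of strength. Member regions had a median width of 399 bp (interquartile range 249 to 649 bp) and the other 5802 regions one of 349 bp (249 to 499 bp). The median list number was 2007 (interquartile range 581 to 4349) among members and 2928.5 (1471 to 4386) in the rest. Of the 45 members, 21 (46.7%, exact 95% interval 31.7 to 62.1%) were at least 499 bp wide, the upper quartile of the list, which 27.4% of all regions reached because of ties. Narrower than the list median of 349 bp were 19 members (42.2%) and 44.8% of all regions, so the shares differed little there. A width of at least 799 bp, the 95th percentile, was reached by 5.49% of all regions and by 10 members (22.2%). Among the first 585 regions, which are 10.0% of the list, 12 members were found (26.7%, exact 95% interval 14.6 to 41.9%). All 12 of these, and all 10 of the widest, lay in the Smad7, Skil, Tgif1 and Pmepa1 windows, which held 37 of the 45 members. These intervals cover counting error only and treat neighbouring regions as independent. The list used here holds no depth, read count or peak height, so the strength of a region has no error of its own.

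**Figure D2:**
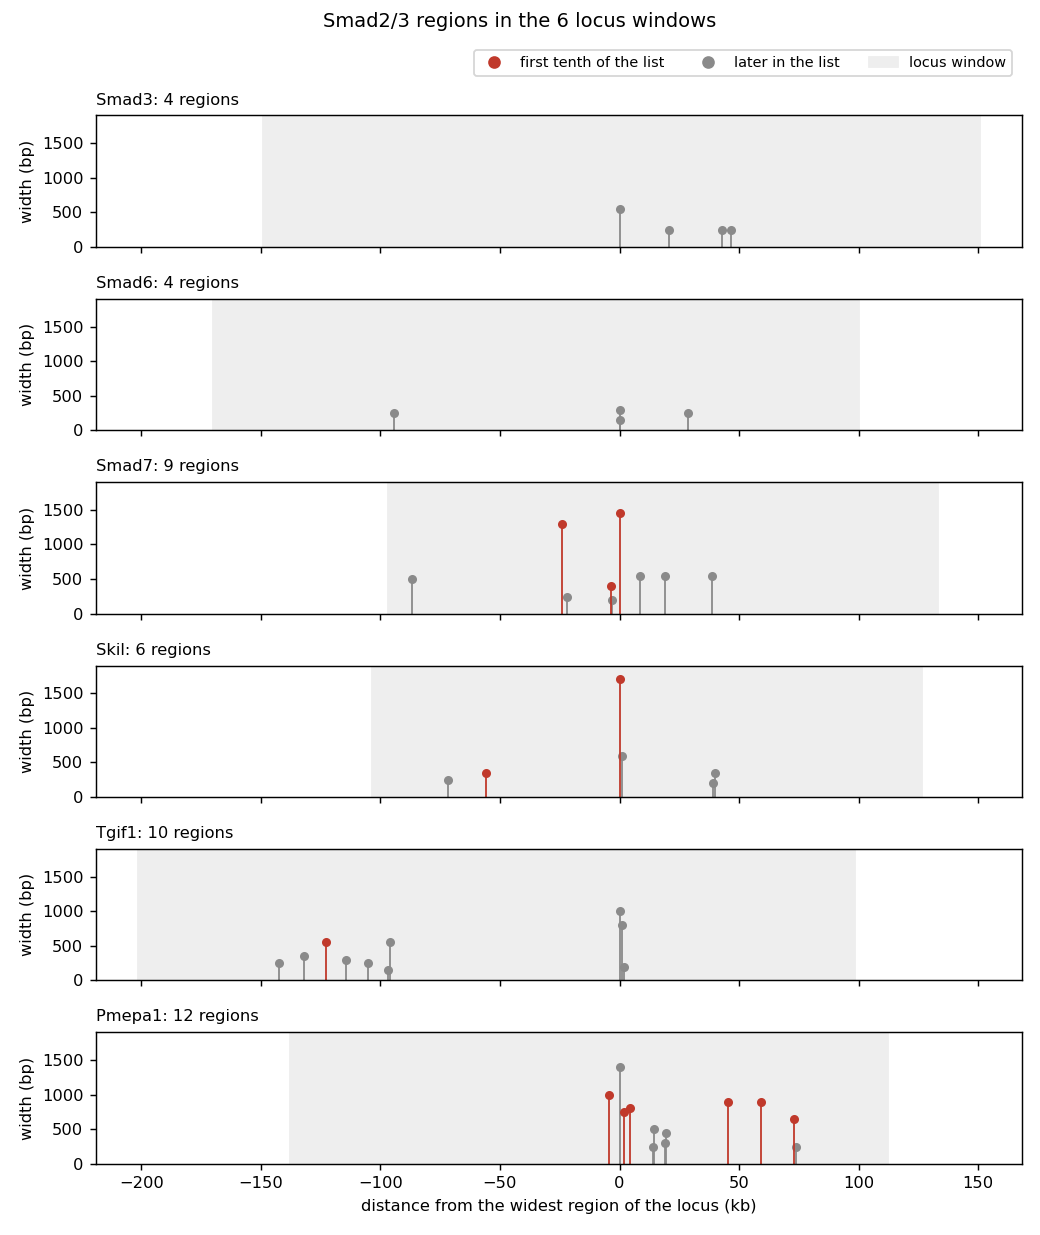
Regions in each locus window, placed by their distance in kb from the widest region of that locus, with the height of each stem giving the width in bp. Red stems belong to the first 585 regions of the list and grey stems to later ones; the 4 stems at Smad3 and the 4 at Smad6 are grey and reach at most 549 bp, while the tallest, at Skil, reaches 1699 bp.

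At Smad3, the gene of one of the precipitated factors, Smad2/3 regions were as few as at Smad6 and fewer than at the other 4 loci, and 3 of 4 were narrower than the list median. The 4 regions lay within 46.9 kb, with 149.1 kb of the window before the first and 104.3 kb after the last without any. The widest measured 549 bp, at 63548851 to 63549399 of chromosome 9, and was number 1613. The other 3 were each 249 bp wide, a width exceeded or equalled by 83.6% of the list. They lay at 63569601 to 63569849 (number 5181), at 63591801 to 63592049 (number 2234) and at 63595551 to 63595799 (number 4580). The last pair stood 3.75 kb apart, and the first region stood 20.6 kb from its nearest neighbour. In total 1.30 kb of the window, or 0.432%, was covered.

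Smad6 follows Smad3 as the next protein-coding gene in the RefSeq order of chromosome 9, and its widest region was narrower than the widest of any other locus. None of its 4 regions exceeded 299 bp, and the covered length was 0.946 kb, or 0.35% of the window. The region at 63775551 to 63775799 was 249 bp wide and number 2007. It stood alone, 94.2 kb from the nearest region and 180.0 kb from the last region of the Smad3 window. A close pair followed, with a region of 299 bp at 63869701 to 63869999 (number 2520) and one of 149 bp at 63870151 to 63870299 (number 5405). Its last region, at 63898451 to 63898699, was 249 bp wide and number 3315. Of the 8 regions at Smad3 and Smad6 together, 7 (87.5%) were narrower than the list median of 349 bp, against 44.8% of all regions. None of the 8 was among the first 585, and none belonged to a run of at least 3 regions with centres no more than 12500 bp apart, here called a cluster.

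The other inhibitory SMAD, Smad7, had wider and earlier regions. Its 9 regions had a median width of 549 bp and a median list number of 919, and 8 of them came before number 2924. The widest was a region of 1449 bp at 75525951 to 75527399 of chromosome 18, number 101 of the list, a width that 13 of the 5847 regions reached. A region of 1299 bp, reached by 21 of all regions, lay at 75501801 to 75503099 and was number 310. In all, 5.74 kb of the window was covered, or 2.50%.

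A pair of less wide regions at Smad7 also stood early for their width. Next to the region of 1299 bp lay one of 249 bp at 75504651 to 75504899, which was number 880. Of the 885 regions of that width in the list, 6 came earlier, and their median number was 3878. Similarly, a region of 399 bp at 75522851 to 75523249 was number 454, and 32 of the 523 regions of its width came earlier. That region opened a cluster of 5 that ran over 23.3 kb to 75546149 and included the widest region. The other members of the cluster were a region of 199 bp at 75523401 to 75523599 (number 4443) and 2 of 549 bp at 75535151 to 75535699 (number 919) and 75545601 to 75546149 (number 2439). Not all stood early for their width, since 191 of the 278 regions of 549 bp came before number 2439. Of the 237 clusters of the list, 22 had 5 or more regions. Outside the cluster, a region of 549 bp lay at 75565151 to 75565699 (number 1086) and one of 499 bp at 75439551 to 75440049 (number 1352), the latter 62.7 kb from any other. Beyond the last region, the next one towards higher coordinates was 653.8 kb away. Of all distances between neighbouring regions of the list, 18.1% were at least as long. On the lower side the next region was 99.8 kb away, and 49.4% of those distances were at least as long.

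The Skil window held the earliest and the widest member. A region of 1699 bp at 30992501 to 30994199 of chromosome 3 was number 4, and 1 region of the list was wider. Only 51 bp beyond its end began a region of 599 bp, at 30994251 to 30994849 (number 619). That gap was the smallest in the list, and 20 of the 5827 neighbouring pairs had it, among them 1 at Pmepa1. With regions joined where their edges lay within 500 bp, this pair formed a stretch of 2349 bp, and 1 of the 5619 joined regions was wider. The remaining 4 regions measured 199 to 349 bp, at or below the list median. A region of 349 bp at 30937501 to 30937849 was number 581, with 27 of 636 regions of its width before it. Away from it by 15.9 kb lay one of 249 bp at 30921701 to 30921949 (number 4349). On the other side, 37.9 kb past the central pair, were regions of 199 bp at 31032351 to 31032549 (number 5539) and of 349 bp at 31033251 to 31033599 (number 4264). None of the Skil regions belonged to a cluster, because they stood alone or in pairs. Towards lower coordinates no region followed for 1046.2 kb, and 11.3% of all distances between neighbouring regions of the list were at least as long. Towards higher coordinates the next region was 204.95 kb away, a distance that 37.1% reached.

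Tgif1, the other corepressor gene, had its 10 regions in 2 separate groups 96.1 kb apart, and all 10 were clustered. The group at higher coordinates was compact, with 3 regions in 2.30 kb. It held the widest region of the locus, 999 bp at 71200851 to 71201849 of chromosome 17, which was number 895. Beside it stood a region of 799 bp at 71202051 to 71202849 that was number 5543. Of the 321 regions of the list at least that wide, it came last in list order, and the median number of the 79 regions of exactly that width was 995. The third, of 199 bp at 71202951 to 71203149, was number 5480. Joined, they formed a stretch of 2299 bp, and 2 of the 5619 joined regions were wider.

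The second Tgif1 group held 7 regions over 46.6 kb, from 71058901 to 71105549, and 4 of the 237 clusters had 7 or more. Its regions measured between 149 and 549 bp. The earliest was number 492, a region of 549 bp at 71078151 to 71078699. Another of 549 bp closed the group at 71105001 to 71105549 (number 1727), beside one of 149 bp at 71104451 to 71104599 (number 5155). The other 4 were regions of 249 bp at 71058901 to 71059149 (number 3638), 349 bp at 71069301 to 71069649 (number 4003), 299 bp at 71086701 to 71086999 (number 1374) and 249 bp at 71096101 to 71096349 (number 3918). In the RefSeq gene order, Tgif1 lies between Dlgap1 and Myl12b, and which gene either group belongs to was not determined.

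Pmepa1 had the most regions, the highest density and the largest covered length, 8.14 kb or 3.26% of its window. The median width of its 12 regions was 699 bp and the median list number 526.5. Of the 12, 8 were at least 499 bp wide and 6 were among the first 585 of the list. Its widest region measured 1399 bp, at 173087001 to 173088399 of chromosome 2, and was number 590. Next came 999 bp at 173082951 to 173083949 (number 373), followed by 2 regions of 899 bp at 173132501 to 173133399 (number 463) and at 173146601 to 173147499 (number 210). The earliest in the list was a region of 749 bp at 173089001 to 173089749, number 57. A region of 799 bp at 173091751 to 173092549 was number 148, and one of 649 bp at 173160251 to 173160899 was number 359. Together with number 210 these were the 4 earliest at the locus.

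The Pmepa1 regions were not mixed evenly along the locus. A cluster of 8 regions opened with the 4 wide ones between 173082951 and 173092549, all of which were among the first 590 of the list. The following 4, from 173101401 to 173107249, measured 249 to 499 bp and had numbers between 3057 and 5540, so the wider, earlier regions and the less wide, later ones lay side by side. Beyond the cluster, 25.9 kb further on, stood the 2 regions of 899 bp, 14.1 kb apart and each without a closer neighbour than 13.5 kb. The last 2 regions formed a pair 1.00 kb apart, of which the second was 249 bp wide (number 2770). The part of the window before the first region, 133.5 kb, was empty, and the next region on that side was 909.3 kb from that first region. A distance at least as long separated 13.2% of neighbouring regions in the list. Past the last region the next one was 116.2 kb away, and 46.9% of distances were at least as long.

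**Figure D3:**
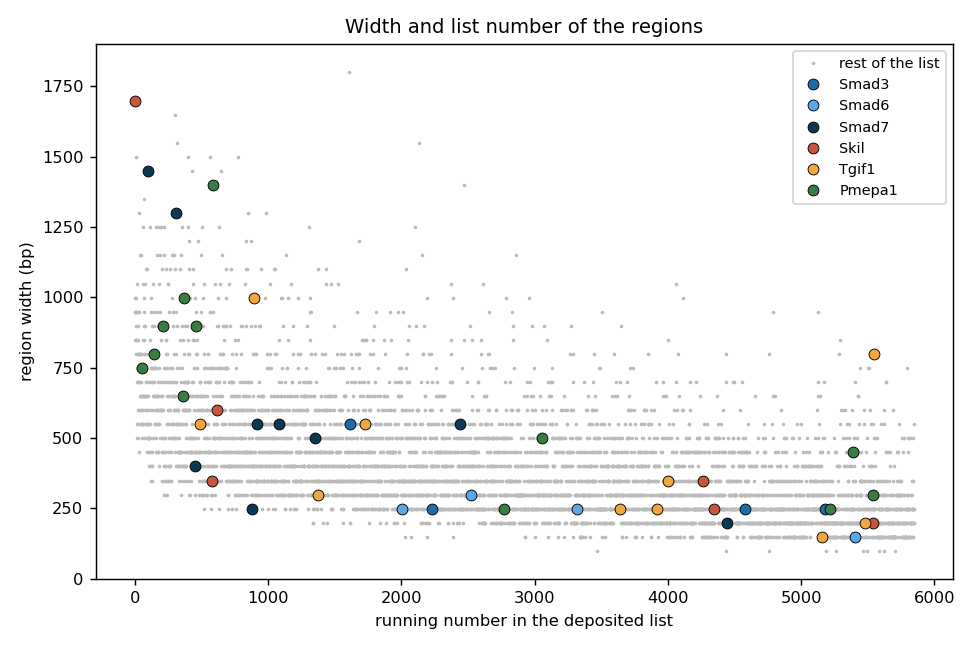
Width in bp of each region against its running number in the deposited list, with the rest of the list in grey and the 45 members coloured by locus. The widest regions of Pmepa1, Smad7, Skil and Tgif1 lie at the upper left, while each of these loci also has narrow regions late in the list. Smad3 and Smad6 regions lie at or below 549 bp, and the Tgif1 region of 799 bp at number 5543 stands alone at the upper right.

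Width and list number went together among the members as in the list. Spearman's rho was -0.74 across the 45 members and -0.61 across the whole list, where all points come from 1 library and members of a locus share their surroundings. Grouped by role, the inhibitory SMAD windows had 13 regions with a median width of 399 bp, and the corepressor windows 16 with a median of 349 bp. The first median hides a difference between its genes, since all 4 Smad6 regions were narrower than 349 bp while 7 of the 9 Smad7 regions were not. After number 2923 stood 50.0% of all regions by construction, and among members this held for 1 of 9 at Smad7, 4 of 12 at Pmepa1, 2 of 4 at Smad3, 2 of 4 at Smad6, 3 of 6 at Skil and 6 of 10 at Tgif1. With 1 library and 4 to 12 regions at a locus, differences between loci were not tested.

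Regions at these loci lay close together. The median distance from a member to the nearest region of the list was 2.33 kb (interquartile range 0.750 to 10.45 kb), against 27.9 kb (5.10 to 116.9 kb) in the rest. The windows were picked where genes of 1 pathway lie and are dense in regions. How far that density accounts for the short distances was not tested. By locus the median was 1.20 kb at Skil, 1.34 kb at Pmepa1, 3.18 kb at Smad7, 4.70 kb at Tgif1, 12.2 kb at Smad3 and 14.4 kb at Smad6. A neighbour within 12500 bp was found for 35 of 45 members (77.8%), against 37.1% of all regions. Clusters held 23 members (51.1%, exact 95% interval 35.8 to 66.3%), against 13.9% of the list, namely 10 of 10 at Tgif1, 8 of 12 at Pmepa1 and 5 of 9 at Smad7. No region was clustered at Skil, Smad3 or Smad6, where the exact 95% intervals reached up to 45.9%, 60.2% and 60.2%. Of the 39 neighbouring pairs within a locus, 25 had centres within 12500 bp and 8 had edges within 500 bp. In the whole list 21.5% of neighbouring pairs had centres within 12500 bp and 3.91% had edges within 500 bp.

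**Figure D4:**
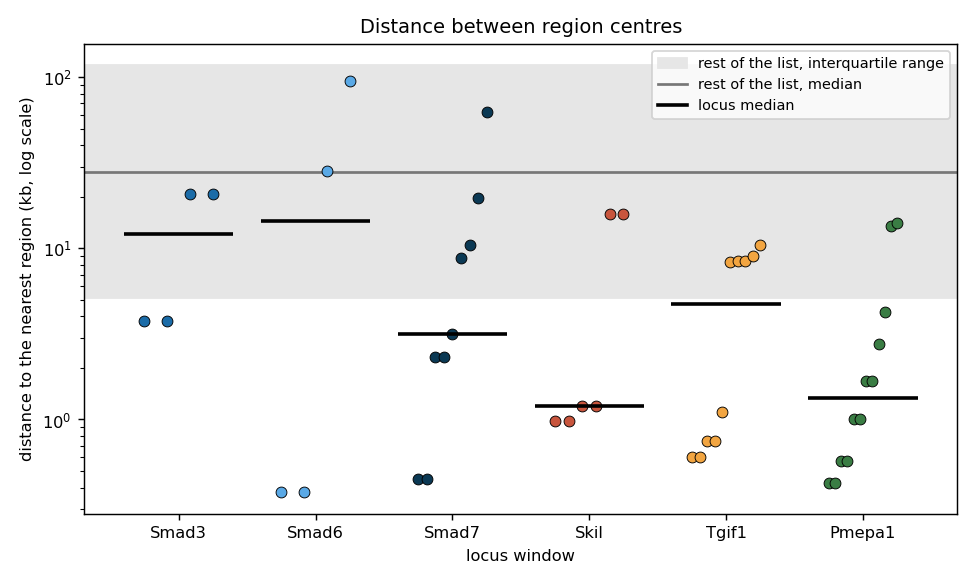
Distance in kb (log scale) from each member to the nearest region of the list, by locus, with black lines for locus medians and the grey line and band for the median and interquartile range of the rest of the list. All 10 Tgif1 points lie at or below 10.45 kb, while Smad6 points range from 0.375 to 94.2 kb.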

How the data were processed

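The authors deposited 1 list of called regions, of the anti-Smad2/3 ChIP library, and the input library was not analysed here. The submitters' processing notes name Bowtie2 and mm9, with no version. For the caller, threshold and any use of the input, steps were not given in the sources used here. A score of 1000 was deposited in every line, so it ranked nothing. Positions lie on a 50 bp grid, were read as BED and are printed counted from 1. With inclusive ends every width would grow by 1 bp. Sequencing depth is unknown.

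Members were taken by region centre. Distances are between centres. The fixed windows start at position 0 of a chromosome and run from the first to the last region. Share intervals are exact (Clopper-Pearson), for counting error only. With 1 library no test was run. Counting and clustering were checked on planted regions. The members, windows and groupings were chosen with earlier results of these data known. The rule for naming regions was to give all, or at a locus with more than 10 the 4 widest and the 4 earliest. For Pmepa1, others are named by range, except number 2770, which was chosen after its values were seen. Placement relative to genes, motifs within regions and counts for other pathway genes were planned and not run, since no mm9 annotation or sequence was used. Python 3.11.15, numpy 2.4.6, pandas 2.3.3, scipy 1.17.1 and matplotlib 3.10.9 were used.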

Additional observations from a re-analysis of the deposited data

How the results depend on the processing

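Of 81 values recomputed under the alternatives, 64 stayed within 1.5 times a count or within the 95% binomial interval of a median or share. These intervals were 249 to 549 bp for width, 895 to 3638 for list number, 1.00 to 8.43 kb for nearest distance and 35.8 to 66.3% for the clustered share. At least the median width of the list was reached by 55.2% of all regions and by 26 of the 45 members. By locus these were 1 at Smad3, 0 at Smad6, 7 at Smad7, 4 at Skil, 5 at Tgif1 and 9 at Pmepa1. Their median width was 574 bp, their median list number 604.5 and their median nearest distance 8.85 kb. In the rest these values were 449 bp, 1842.5 and 55.0 kb. The first 2923 regions of the list left 27 members, with 2 at Smad3, 2 at Smad6, 8 at Smad7, 3 at Skil, 4 at Tgif1 and 8 at Pmepa1. Their median list number was 619 (1468.5 in the rest) and their clustered share 29.6% (7.91% in the rest). The first setting keeps only the wider regions and the second only the earlier ones. The higher median width in the first and the lower median list number in the second thus follow from the filters, in members and rest alike. Both settings also make the list smaller, and how much of the other shifts follows from that was not tested. With edges within 500 bp merged, the median nearest distance was 8.75 kb (33.5 kb in the rest). The median width of members then rose to 549 bp, the upper bound of its interval, while the rest stayed at 349 bp. The clustered share was 31.1% for neighbours within 5 kb and 75.6% within 25 kb (5.62% and 22.8% in the rest), as the definition sets. Windows shortened or lengthened by 25 kb at both ends, membership by overlap, clusters of at least 4 regions, and leaving out Pmepa1 kept every value within those bounds. With fixed windows starting later by 0.5 of their length, the share as full as Pmepa1 became 0.0197% and that for Smad7 0.127%, within wide intervals (0.0107 to 0.101% and 0.0373 to 0.155%). No paired analysis was possible because only 1 library was precipitated, and no replicate could be left out. Since depth is unknown, a stretch without a region cannot be read as unbound.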

Other observations

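In the second Tgif1 group, 6 of the 7 regions were evenly spaced. The first 6 were separated by 5 centre distances of 8.30 to 10.45 kb, with a mean of 9.10 kb and a coefficient of variation of 9.54%. Of the 17 stretches of 6 successive regions in the list with all 5 distances within 12500 bp, which overlap one another, this was the most even, and the next had a coefficient of variation of 43.4%. The overlapping stretch that takes in the last region of the group had distances of 0.750 to 9.38 kb and a coefficient of variation of 50.4%. Since every distance had to be within 12500 bp, a stretch with a mean near that limit had less room to vary. The stretches outside Tgif1 had means of 1.165 to 5.45 kb, so the order by evenness depends in part on this limit. The measure was chosen after these distances had been seen, and no cause was tested.

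Where members stood within 500 bp of each other, their list numbers were often far apart. In the 8 such pairs the numbers differed by 63 to 4648, with a median of 2521, against a median of 1673 in the 220 pairs of the rest. The wider region was the earlier one in 7 of the 8 pairs, and in 138 of the 196 pairs of unequal width in the rest. The exception was at Tgif1, where the region of 799 bp (number 5543) came after its neighbour of 199 bp (number 5480). In 7 of the 8 pairs (87.5%) the later region stood after number 2923, against 74.5% of the pairs in the rest. By construction, the later region of any pair lies past the middle of the list more often than a single region does. How far apart unrelated regions stand in the list was not computed, and the difference between these 8 pairs and the rest was not tested. The same region of 799 bp also formed a pair with the region of 999 bp (number 895).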
